A study of Mus musculus with 25 samples.

Results

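The 38 genes described here are imprinted genes and the host or neighbour genes of 20 imprinted loci, chosen by name from knowledge of imprinting. Every row of the 24 peak lists whose assigned gene is among these 38 was taken, which gave 53 of 55242 peaks. Of these, 18 were H3K9me3 and 35 were H3K27me3 peaks, and they fell on 16 of the 38 genes, of 9993 genes with a peak in any list. The lists come from ChIP-seq of regenerating myofibers of the tibialis anterior muscle, with 3 libraries for each of 4 genotypes and 2 marks. All mice, wild-type ones included, carried a mito-Dendra2 reporter and a Pax7-Cre(ERT2) driver. Pax7 is expressed by muscle stem cells, so recombination is limited to them and their progeny, and a fiber is mutant as far as its nuclei derive from recombined cells. The groups were wild-type, mfn2-/- (no mitofusin 2, an outer membrane protein of mitochondrial fusion), vhl-/- (no VHL, which marks HIF1α for degradation) and HIF1dPA (a HIF1α that escapes this degradation, expressed after recombination). All groups received tamoxifen at 75 mg/kg on each of 5 days, then after 2 days 50 µL of 1.2% BaCl2 in the muscle, and Dendra2+ fibers were dissected 14 days post injury (dpi) from adult mice whose exact ages the labels do not give. An input library of wild-type fibers was not used here.

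Imprinted genes are expressed from only the maternal or only the paternal allele. Each cluster is governed by a control region whose DNA is methylated on the copy from 1 parent, and in many cell types that copy also carries H3K9me3, the mark of constitutive heterochromatin, held there by the zinc finger protein ZFP57, its partner TRIM28 and the methyltransferase SETDB1. H3K27me3, the mark placed by Polycomb repressive complex 2, is found at silent developmental genes and on the silent allele of some imprinted genes. At 3 of the 20 loci (H19-Igf2, Dlk1-Meg3 and Rasgrf1) the control region is methylated on the paternal copy, and at the other 17 on the maternal copy. The lists do not separate the parental alleles.

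Peak lists record what was called, not how much was sequenced. Sequencing depth is unknown, and each peak carries a score, 10 times the negative log10 of its p-value, that is at least 50 and was compared only within a list. H3K9me3 lists held 2885 to 3176 peaks in wild-type and 887 to 1709 in the mutant genotypes. H3K27me3 lists held 3358 to 4035 peaks in 3 genotypes and 482 to 501 in HIF1dPA. Of 18 genes of adult myofibers, 0 had a peak of either mark, and 11 of 12 transcription factors of other lineages had H3K27me3 peaks in at least 3 libraries. The numbers in the peak names skip 190 to 842 values in H3K9me3 lists and 39 to 281 in H3K27me3 lists, and peaks under the skipped numbers were not analysed here. A skipped number lay between the listed peaks that flank a member (its RefSeq gene with 10 kb on each side) in 25.4% of 456 pairs of gene and list for H3K9me3 and in 11.4% of 456 for H3K27me3, so in those pairs a gene without a listed peak may still have had one.

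The sequences below are the 250 bases before a RefSeq start (build GRCm38.p6, the same assembly as the mm10 of the submitters' processing notes), each written 5′ to 3′ on the strand of its gene. They were chosen after their values were seen. Igf2 is shown because H3K27me3 peaks lay over this sequence in 5 libraries and within 2 kb of its start in 8, Grb10 because peaks lay within 2 kb of its start in 3 libraries and farther off in others, and Mest and Meg3 because H3K9me3 peaks lay over or upstream of the start of a gene that marks a control region. Capitals mark TGCCGC, the core that ZFP57 binds when methylated, on either strand (GCGGCA on the strand shown).
Igf2, chr7:142661272-142661521, minus strand: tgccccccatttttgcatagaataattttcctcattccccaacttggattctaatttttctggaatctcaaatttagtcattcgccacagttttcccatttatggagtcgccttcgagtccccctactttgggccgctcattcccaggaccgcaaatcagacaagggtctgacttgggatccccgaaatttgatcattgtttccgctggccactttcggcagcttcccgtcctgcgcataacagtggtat
Grb10, chr11:12037421-12037670, minus strand: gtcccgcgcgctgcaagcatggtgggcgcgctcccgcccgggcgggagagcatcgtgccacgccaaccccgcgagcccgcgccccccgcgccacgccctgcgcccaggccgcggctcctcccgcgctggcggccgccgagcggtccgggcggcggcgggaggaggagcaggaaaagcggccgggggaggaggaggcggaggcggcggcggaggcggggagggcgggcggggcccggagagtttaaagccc
Mest, chr6:30737800-30738049, plus strand: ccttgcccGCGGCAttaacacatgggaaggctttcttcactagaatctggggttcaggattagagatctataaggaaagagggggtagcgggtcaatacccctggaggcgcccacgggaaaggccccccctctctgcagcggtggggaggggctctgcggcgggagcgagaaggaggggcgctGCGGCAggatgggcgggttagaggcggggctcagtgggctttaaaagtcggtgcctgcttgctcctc
Meg3, chr12:109540746-109540995, plus strand: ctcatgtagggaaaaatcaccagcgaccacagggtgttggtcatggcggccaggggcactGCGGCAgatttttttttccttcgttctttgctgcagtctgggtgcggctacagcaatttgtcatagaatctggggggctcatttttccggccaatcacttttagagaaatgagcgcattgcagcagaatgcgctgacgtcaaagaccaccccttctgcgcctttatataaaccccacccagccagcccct

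The core was present 2 times before this Mest start and 1 time before this Meg3 start, and it was absent from the Igf2 and Grb10 sequences. Over all RefSeq genes, 8.68% of 32851 such promoters held TGCCGC on either strand. Among the genes that mark a control region it was in 6 of 24 promoters (25%), which belong to Mest (2 overlapping windows), Meg3, Mcts2, Nap1l5 and Plagl1, and among all members in 6 of 45 (13.3%). CG dinucleotides numbered 40 in the Grb10 sequence, 14 in that of Mest and 10 each in those of Igf2 and Meg3, against a median of 6 over all promoters. A match is a description of the letters and says nothing of binding in these fibers.

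H3K9me3 was called at few of the imprinted loci, and at each in few libraries. Across the 12 H3K9me3 lists, 11 of the 38 members had a peak assigned to them by name, and 2 (Airn and Rasgrf1) had peaks in at least 3 libraries. Of the 20 genes that mark a control region, 5 had a peak by name (Mest, Airn, Meg3, Rasgrf1 and Slc38a4). A further 4 (Kcnq1ot1, Snrpn, Peg13 and Nnat) had a peak anywhere in the gene or within 10 kb of it that was assigned to another gene. Of these genes, only Mest, Meg3 and Nnat had a peak within 2 kb of a RefSeq start, and Peg13 had no start in the promoter set used. The other 11 had none listed, and none of the 20 had H3K9me3 listed in more than 4 of 12 libraries. Control regions were not located by position, so a peak in one that carries another gene's name and lies outside these windows was not counted. A set of control-region genes marked in every genotype, as the label of an internal reference implies, was not seen by name or window. The genes are described as imprinted genes. The member peaks were weak, with scores of 50.31 to 67.62 and a median of 58, and 0 of 18 reached a score of 100. Over all H3K9me3 peaks the median was 60.8, and 11.1% reached 100. Each member peak was 454 to 817 bp long.

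**Figure D1:**
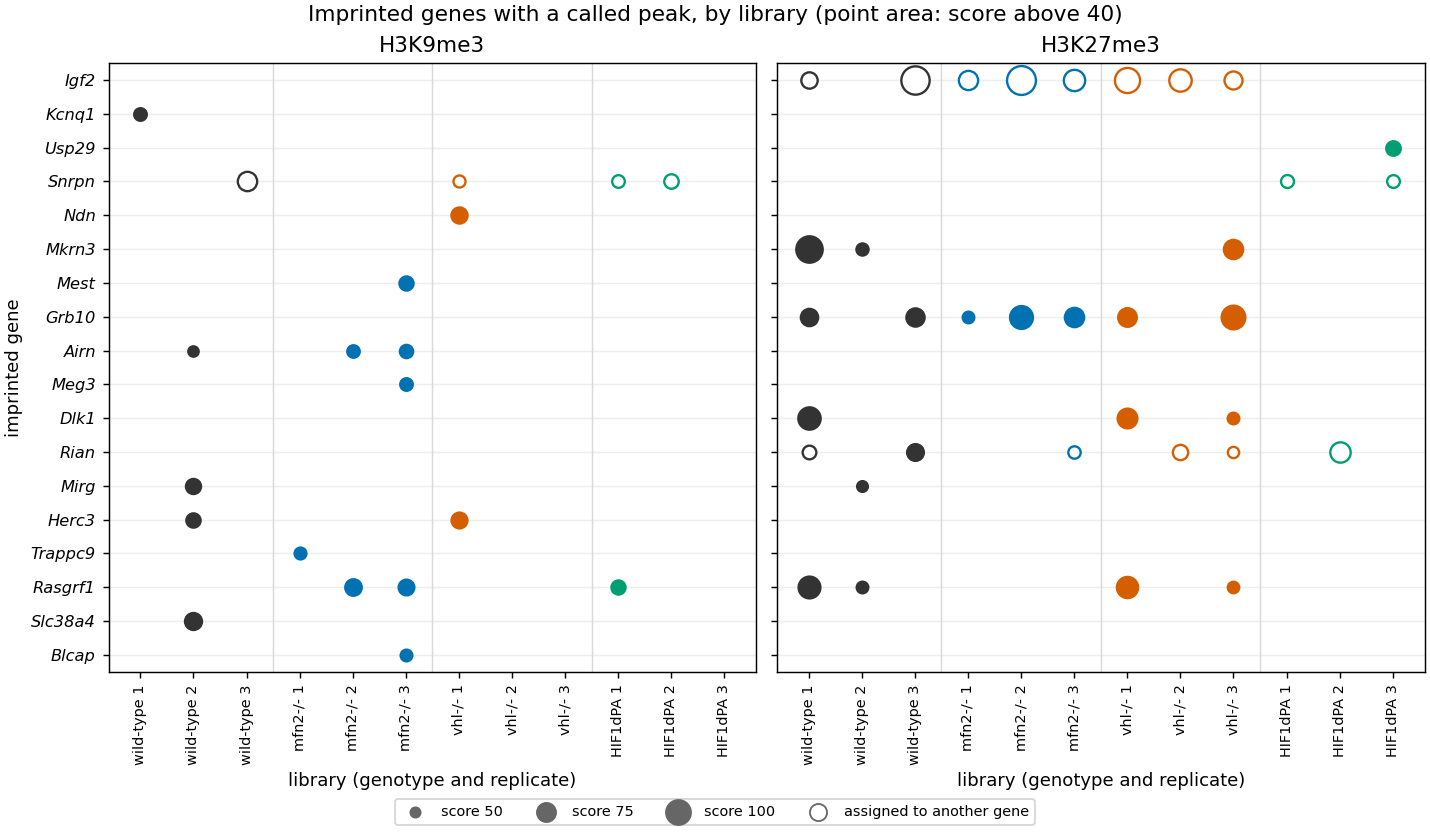
Imprinted genes with a listed peak (rows) in each of the 12 libraries of a mark (columns, coloured by genotype), H3K9me3 on the left and H3K27me3 on the right. Point area grows with the highest score above 40. An open point is a peak within 10 kb of the gene that the authors assigned to a gene outside the set described here. Peaks at Nnat, Peg13 and Kcnq1ot1 were assigned to Blcap, Trappc9 and Kcnq1, members of the set, and are drawn under those names only. Most genes with H3K9me3 points have them in a single library, while Snrpn has them in 4 and Airn and Rasgrf1 in 3 each. Igf2 and Grb10 have H3K27me3 points in 8 and 7 libraries and none in HIF1dPA.

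The H3K9me3 peaks nearest to RefSeq starts of control-region genes were listed in mfn2-/- fibers. Only 15 of the 20 control-region genes had a start in the promoter set used. Of these, 3 had a peak within 2 kb of a start, and all 3 peaks were in mfn2-/- replicate 3. At Mest, a hydrolase-like protein made from the paternal allele, a peak at chr6:30737242-30737813 (score 59.17) ended 237 bp before the start at the end of the printed sequence and covered its first bases. At Meg3, a maternally expressed long non-coding RNA, a peak at chr12:109538604-109539177 (score 55.14) ended 1819 bp before the printed start. A peak at chr2:157558802-157559459 (score 53.14), assigned to Blcap, lay just upstream of Nnat, a small proteolipid gene inside an intron of Blcap. That library had an H3K9me3 peak within 2 kb of a start for 35 genes in all (0.13% of 27025), so these 3 were among few. The other 2 mfn2-/- libraries had 26 and 23 such genes, wild-type libraries 98 to 110, and none of these was a member. At Mest, Nnat and Blcap no list skipped a number, so a peak at these genes was listed in 1 of 12 libraries. At Meg3, numbers were skipped in all 3 mfn2-/- lists and in 3 others.

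Another peak at a control-region gene, at chr15:72808697-72809296 in mfn2-/- replicate 1 (score 53.48), lay inside the RefSeq gene of Peg13. Peg13 is a non-coding RNA within an intron of Trappc9, a vesicle tethering subunit, and it had no start in the promoter set used. Counted by library, member H3K9me3 peaks numbered 1, 5 and 0 in wild-type, 1, 3 and 5 in mfn2-/-, 2, 0 and 0 in vhl-/-, and 1, 0 and 0 in HIF1dPA replicates 1 to 3. The range within wild-type and within mfn2-/- was as wide as any difference between genotypes. As a share of each list, this was 0% to 0.157% in wild-type and 0.0847% to 0.338% in mfn2-/-.

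Rasgrf1 and Airn were the members with H3K9me3 peaks in 3 libraries. Rasgrf1 encodes a guanine nucleotide exchange factor for Ras. Its peaks formed the region chr9:89937691-89938626, in an intron at least 27916 bp downstream of the start, so they did not lie at the promoter. They covered 578 bp in mfn2-/- replicate 2, 626 bp in mfn2-/- replicate 3 and 535 bp in HIF1dPA replicate 1, and 0 bp in the other 9 libraries. Covered length did not differ beyond the spread between libraries (exact permutation test across 4 genotypes, p = 0.182, adjusted p = 0.338 over 984 regions). Without mfn2-/- replicate 1, which had no peak here, the region separated mfn2-/- from wild-type completely, as did 20.5% of all 1149 regions with enough peaks at that setting. Numbers were skipped around Rasgrf1 in 5 H3K9me3 lists, that of wild-type replicate 1 among them.

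The Airn peaks lay far inside the transcript. Airn is the antisense RNA that starts in an intron of Igf2r, the receptor that clears IGF2, and its peaks stood at least 80709 bp downstream of its RefSeq start. The region chr17:12823076-12824635 was covered over 640 bp in wild-type replicate 2, 639 bp in mfn2-/- replicate 2 and 454 bp in mfn2-/- replicate 3. The 9 other libraries had no peak, and the genotypes did not differ in the test (p = 0.509, adjusted p = 0.622, exact permutation). Igf2r itself had no listed peak of either mark. Numbers were skipped around Airn and Igf2r in vhl-/- replicate 3 for H3K9me3 and in vhl-/- replicate 2 for H3K27me3.

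Snrpn, the splicing factor gene at the control region of the Prader-Willi/Angelman domain, had no peak assigned to it. H3K9me3 peaks within its RefSeq gene and 10 kb on each side carried the names of the predicted genes Gm7367 and Gm38393. They covered 2440 bp in wild-type replicate 3, 593 bp in vhl-/- replicate 1, 1184 bp in HIF1dPA replicate 1 and 446 bp in HIF1dPA replicate 2. The other 8 libraries had none listed. The genotypes overlapped, and the test did not separate them (p = 0.727, adjusted p = 0.833 over 1300 gene windows, exact permutation). Values here are incomplete, since 10 of 12 H3K9me3 lists skipped numbers around Snrpn, up to 19 in a list. H3K27me3 peaks in the same window were listed in HIF1dPA replicate 1 (566 bp) and replicate 3 (675 bp) and in no other library, and no H3K27me3 list skipped a number there. The first of them, chr7:60210987-60211552, lay on nearly the same bases as an H3K9me3 peak of wild-type replicate 3, chr7:60210994-60211665.

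The remaining H3K9me3 peaks were single. Kcnq1, a voltage-gated potassium channel gene, had a peak in an intron in wild-type replicate 1 (score 55.23), which also lies in the window of Kcnq1ot1, the long antisense RNA of that cluster. Wild-type replicate 2 held peaks assigned to Mirg, a host RNA of microRNAs, to Herc3, the host gene of Nap1l5, and 2 to the amino acid transporter gene Slc38a4. In vhl-/- replicate 1, peaks were assigned to Herc3 and to Ndn, a MAGE family gene. Those of Mirg, Herc3, Slc38a4 and Ndn were all intergenic, between 30152 and 167908 bp from the nearest RefSeq start of the gene. Around Slc38a4, 6 H3K9me3 lists skipped numbers, also up to 19 in a list. Peaks at this distance bear on a control region only through the name that the authors gave them.

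The shares of imprinted genes and of all genes with a listed H3K9me3 peak are given as a description, without a test. Within 2 kb of a start, 3 of 29 members with a start in the promoter set used (10.3%) had a peak in any H3K9me3 list, against 1.25% of 27025 genes. All 3 were in mfn2-/- replicate 3, and the other 11 libraries had 0 such members. H19, Kcnq1, Cdkn1c, Peg10, Sgce, Nespas, Impact, Peg13 and Trappc9 had no start in that set and were not checked. The peak of mfn2-/- replicate 1 inside Peg13 was therefore not counted here. There were 0 members with a peak there in at least 3 libraries, against 0.233% of all genes. Over the gene with 10 kb on each side the counts were 11 of 38 (28.9%) against 10.3% of 49943 genes. A longer gene has more room for a peak, and gene length was not matched. Across genotypes, 0 of 2 member regions tested were called at an adjusted p under 0.05 and 0 at an unadjusted p under 0.05 (exact permutation), where 4.47% of all 984 H3K9me3 regions were called. By gene window, 0 of 3 members were called, against 5.23% of 1300 windows. No member region separated wild-type completely from mfn2-/-, vhl-/- or HIF1dPA. A region needed peaks in at least 3 libraries of the compared groups, and 36.2%, 25.9% and 26.7% of all such regions separated. Only the Airn region at chr17:12823076-12824635 had enough for mfn2-/-, with peaks in both groups, and no member region had enough for vhl-/- or HIF1dPA. The member count therefore cannot be set against these shares. In the exact test across 4 genotypes, a feature with equal cover in the 3 libraries of 1 genotype only has p = 0.0182, so peaks as sparse as these could hardly be called after adjustment.

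By assigned name, H3K27me3 was found at fewer members than H3K9me3 but in more libraries. There were 7 members with a peak (Usp29, Mkrn3, Grb10, Dlk1, Rian, Mirg and Rasgrf1), and 4 (Grb10, Dlk1, Mkrn3 and Rasgrf1) had peaks in at least 3 libraries. Within 2 kb of a start the order was reversed, with 5 of 29 members for H3K27me3 (8.9% of all genes) and 3 of 29 for H3K9me3 (1.25% of all genes). Of the 35 peaks, 20 (57.1%) lay in the authors' promoter classes, against 47.2% of all H3K27me3 peaks. Scores ran from 50.27 to 106.79 with a median of 58.1, and 1 of 35 reached 100, compared with 16.7% of all H3K27me3 peaks, whose median was 62.1.

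Igf2, a fetal growth factor gene expressed from the paternal allele, was the most widely marked member, although no peak carried its name. The peaks over its upstream part had all been assigned to Igf2os, the antisense RNA that overlaps it, and were found through the RefSeq gene with 10 kb on each side, an analysis added after the data were seen. They lay between chr7:142659812 and chr7:142664811, around the start that follows the printed sequence. In wild-type replicates 1 to 3 they covered 909, 0 and 2007 bp. In mfn2-/- they covered 1827, 813 and 977 bp, and in vhl-/- 1187, 2321 and 1012 bp. The 3 HIF1dPA libraries had no peak. So 8 of 9 libraries of the other genotypes carried H3K27me3 here, and the 3 HIF1dPA libraries shared the value 0 with wild-type replicate 2. The printed promoter itself was overlapped in 5 libraries, while in mfn2-/- replicates 1 and 2 and vhl-/- replicate 1 the peaks lay beside it.

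Mean cover at Igf2 (SD, n = 3 each) was 972 ± 1005 bp for wild-type, 1206 ± 544 bp for mfn2-/- and 1507 ± 711 bp for vhl-/-, and it was 0 bp for HIF1dPA. The 4 genotypes did not differ beyond the spread between libraries (exact permutation test, p = 0.108, adjusted p = 0.238 over 3516 windows). HIF1dPA minus wild-type was -972 bp (two-sided exact permutation test of 3 against 3, p = 0.4, where 0.1 is the smallest possible). The highest scores, 119.77 in mfn2-/- replicate 2 and 116.82 in wild-type replicate 3, ranked 248 and 364 in their lists. HIF1dPA lists were short, and when each library was cut to its 482 strongest peaks, Igf2 kept a peak in 1 wild-type, 1 mfn2-/-, 0 vhl-/- and 0 HIF1dPA libraries. No H3K27me3 list skipped a number at Igf2 or H19. H19, the non-coding RNA that shares the control region of Igf2, had no listed peak of either mark. For H3K9me3, numbers were skipped at H19 and Igf2 in wild-type replicate 2 and vhl-/- replicate 3.

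**Figure D2:**
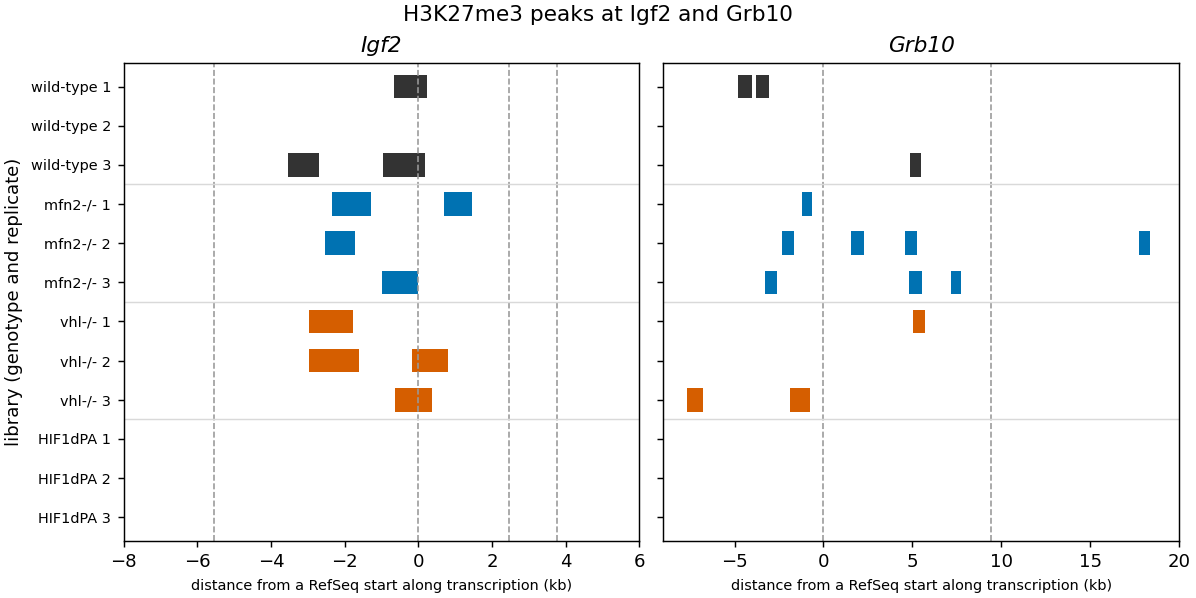
H3K27me3 peaks (bars) in each of the 12 libraries at Igf2 and Grb10, by distance in kb along transcription from the start that follows the printed sequence (0). Dashed lines are RefSeq starts. At Igf2 the peaks fall within 4 kb upstream to 2 kb downstream of this start in 8 libraries, at Grb10 they are spread over a longer stretch in 7 libraries, and the HIF1dPA rows are empty in both.

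Grb10 encodes an adaptor that restrains insulin and IGF signalling, and its CpG-rich upstream sequence is printed above. Its 14 H3K27me3 peaks were the most of any member by name. Within 10 kb of the gene they covered 1543, 0 and 649 bp in wild-type replicates 1 to 3, 579, 2696 and 1977 bp in mfn2-/-, and 697, 0 and 2024 bp in vhl-/-. No HIF1dPA library had a listed peak, and the ranges of the other genotypes overlapped. Means were 731 ± 775, 1751 ± 1076 and 907 ± 1028 bp (SD, n = 3 each), and the test across genotypes gave p = 0.166 and adjusted p = 0.305 (exact permutation). Numbers were skipped around Grb10 in vhl-/- replicate 2 and HIF1dPA replicate 3.

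The Grb10 peaks did not lie on the same bases in every library. The region chr11:12031712-12032838, in an intron between the RefSeq starts, was covered over 649 bp in wild-type replicate 3, 678 and 743 bp in mfn2-/- replicates 2 and 3 and 697 bp in vhl-/- replicate 1. It spanned 3 genotypes in 4 libraries (exact permutation, p = 0.4, adjusted p = 0.549 over 2483 regions). The region chr11:12038055-12039780, which begins 635 bp upstream of the printed sequence's start, was covered over 579 and 696 bp in mfn2-/- replicates 1 and 2 and 1132 bp in vhl-/- replicate 3. No wild-type library had a peak there, and the difference was not past the test (exact permutation, p = 0.509, adjusted p = 0.619). Without mfn2-/- replicate 3, which had its peaks on either side, this region separated mfn2-/- from wild-type completely, as did 11.1% of all 2321 regions with enough peaks at that setting.

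Rasgrf1 carried H3K27me3 around its promoter in 4 libraries and farther upstream in others. Within 10 kb of the gene, cover was 1738, 1463 and 0 bp in wild-type replicates 1 to 3 and 2067, 0 and 488 bp in vhl-/-. All 3 mfn2-/- and all 3 HIF1dPA libraries had no listed peak in this window. Those 6 shared the value 0 with 1 wild-type and 1 vhl-/- library, so the groups overlapped (exact permutation, p = 0.291, adjusted p = 0.43). Numbers were skipped around Rasgrf1 in mfn2-/- replicates 2 and 3, so for mfn2-/- the absence rests on replicate 1.

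More H3K27me3 peaks lay between 23910 and 40598 bp upstream of the Rasgrf1 start, assigned to 4930524O08Rik. They covered 0, 1521 and 2611 bp in wild-type replicates 1 to 3 and 1395, 2649 and 599 bp in vhl-/-. In HIF1dPA they covered 525, 0 and 0 bp, and the mfn2-/- libraries had none listed. Counting both stretches, every wild-type and vhl-/- library had H3K27me3 listed at this locus, as had 1 HIF1dPA library and no mfn2-/- library. This stretch was looked at after the data were seen and was not tested. How often joined stretches separate these groups over all genes was not counted. Among single H3K27me3 regions with enough peaks, 8.54% of 1428 separated wild-type from mfn2-/- completely. Skipped numbers were counted around the gene only, where mfn2-/- replicates 2 and 3 had them.

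At the Rasgrf1 promoter, the region with peaks in 3 libraries, chr9:89906802-89908328, ended 1447 bp before the start and was covered over 1035 and 779 bp in wild-type replicates 1 and 2 and 756 bp in vhl-/- replicate 1 (exact permutation, p = 0.182, adjusted p = 0.351). Rasgrf1 and Mirg were the members with peaks of both marks, and at Rasgrf1 the H3K9me3 peaks and the H3K27me3 peaks lay in different places.

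Dlk1 and Mkrn3 had H3K27me3 peaks in wild-type and vhl-/- libraries. Dlk1, a transmembrane relative of Notch ligands on the paternally expressed side of the Dlk1-Meg3 cluster, was covered over 1718 bp in wild-type replicate 1 and 1302 and 684 bp in vhl-/- replicates 1 and 3. The other 9 libraries had 0 bp (exact permutation, p = 0.509, adjusted p = 0.597), and numbers were skipped in mfn2-/- replicate 1 and HIF1dPA replicate 2. Mkrn3, a RING finger gene of the Prader-Willi/Angelman domain, was covered over 867 and 703 bp in wild-type replicates 1 and 2 and 684 bp in vhl-/- replicate 3. It was at 0 bp elsewhere (exact permutation, p = 0.182, adjusted p = 0.305), and no list skipped a number there. Its peak in wild-type replicate 1, at chr7:62422571-62423437, had the highest score of any peak assigned to a member, 106.79.

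**Figure D3:**
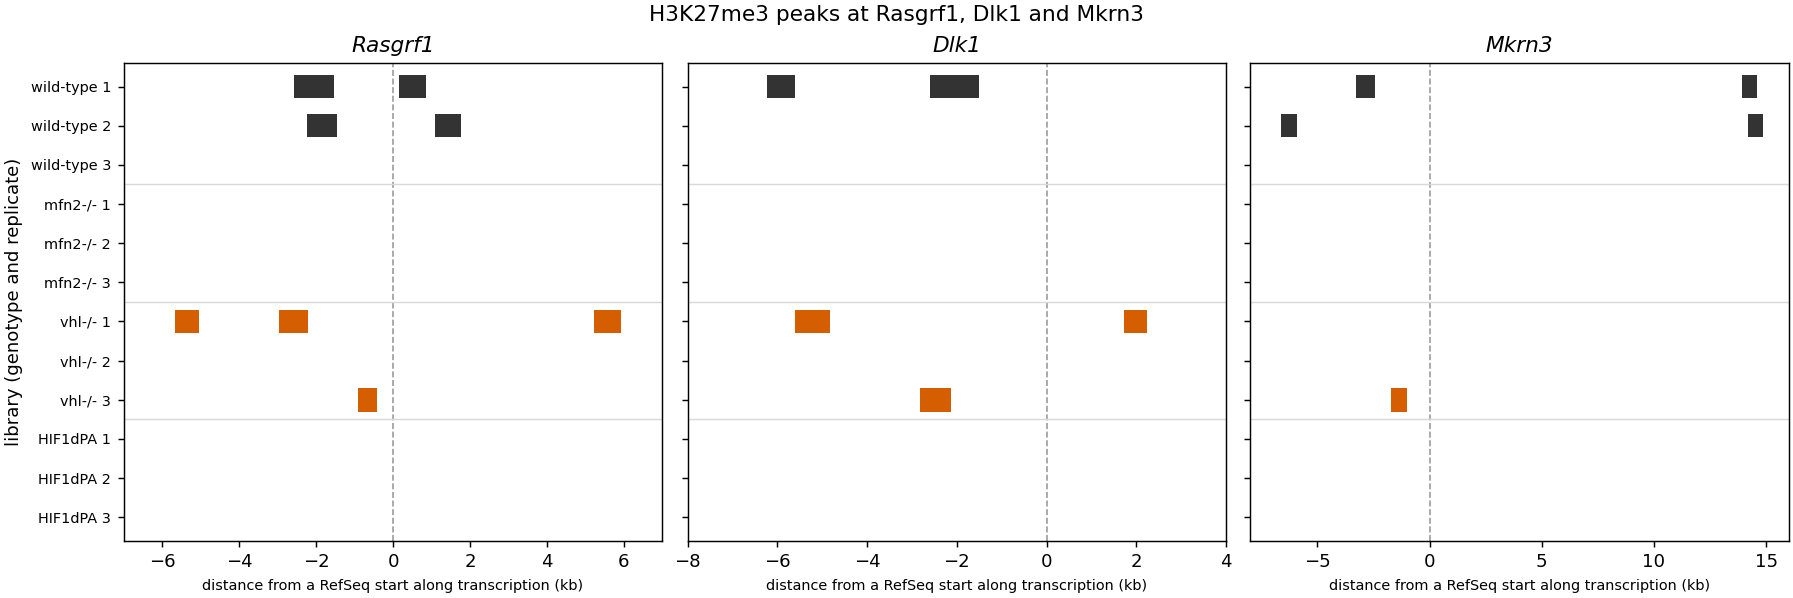
H3K27me3 peaks (bars) in each of the 12 libraries at Rasgrf1, Dlk1 and Mkrn3, by distance in kb along transcription from the RefSeq start (dashed line). In the stretches drawn, peaks appear in wild-type and vhl-/- rows and the mfn2-/- and HIF1dPA rows are empty. The Rasgrf1 panel ends 7 kb from the start and leaves out the peaks farther upstream.

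Counts of complete separation changed when wild-type replicate 3 was left out. It had no peak within 10 kb of Rasgrf1 or Mkrn3, where the other wild-type libraries had peaks, and without it 2 member regions (those of Mkrn3 at chr7:62405275-62406220 and Rasgrf1 at chr9:89906802-89908328) separated wild-type completely from mfn2-/- and from HIF1dPA, and 1 (Mkrn3) from vhl-/-. At that setting 12.5%, 56% and 7.25% of all regions with enough peaks did so for mfn2-/-, HIF1dPA and vhl-/-. With all libraries, 0 member regions separated wild-type from any mutant genotype. Among all regions with peaks in at least 3 libraries of the compared groups, 8.54% did for mfn2-/-, 5.14% for vhl-/- and 45.9% for HIF1dPA. Only the Grb10 region chr11:12031712-12032838 had enough peaks for mfn2-/- and only this Rasgrf1 region for vhl-/-. Both had peaks in wild-type and in mutant libraries. No member region had enough for HIF1dPA, so the member count cannot be set against these shares.

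In the cluster of Dlk1 and Meg3, peaks near Rian, a host RNA of small nucleolar RNAs, were listed in 6 libraries of all 4 genotypes. All but that of wild-type replicate 3 were assigned to Rtl1, the neighbouring retrotransposon-derived gene. Cover was 778, 0 and 918 bp in wild-type, 0, 0 and 785 bp in mfn2-/-, 0, 679 and 572 bp in vhl-/- and 0, 877 and 0 bp in HIF1dPA (exact permutation, p = 0.848, adjusted p = 0.923). The HIF1dPA peak had a score of 79.7 and ranked 62 of 499, higher in its list than the peaks of the other genotypes in theirs. Numbers were skipped around Rian in 6 H3K27me3 lists. The single peaks left were 1 of Mirg in wild-type replicate 2 (score 51.09) and 1 of Usp29, a ubiquitin protease gene that shares the Peg3 control region, in HIF1dPA replicate 3 (score 60.13), both intergenic, at 270331 and 236181 bp from the nearest RefSeq start of their gene.

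**Figure D4:**
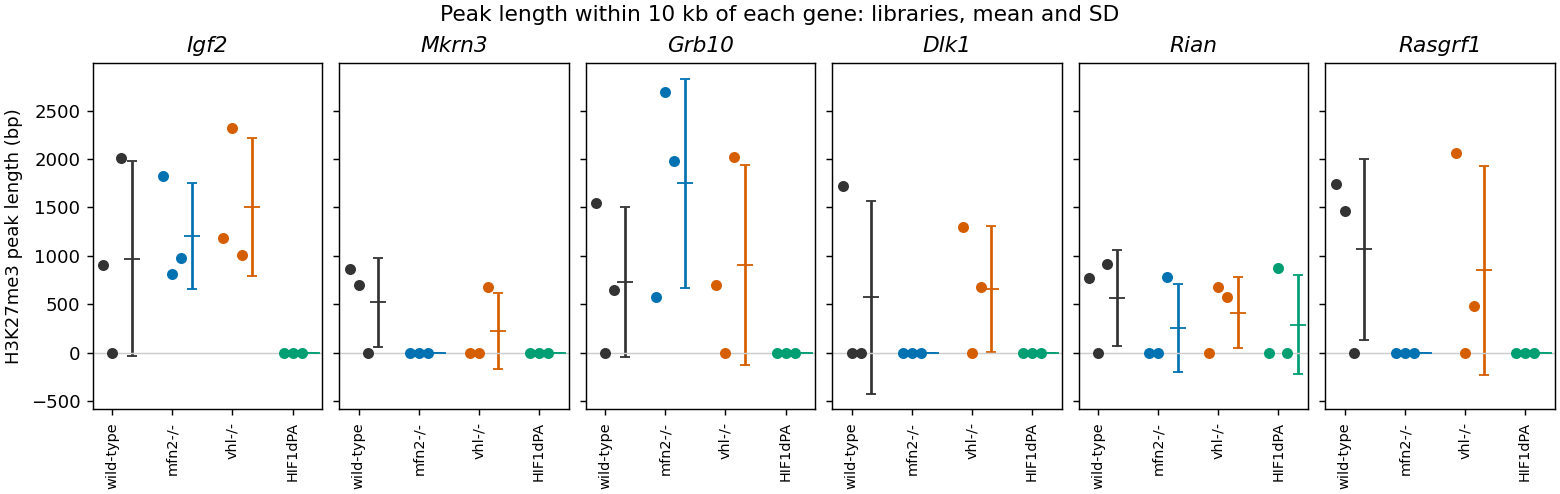
Base pairs covered by H3K27me3 peaks within 10 kb of the 6 members with peaks in at least 3 libraries, by genotype. Points are libraries, and the line beside them is the mean with its SD (n = 3), which reaches below 0 where single libraries hold the peaks. HIF1dPA is at 0 bp in every panel but Rian, and in every panel the range of the wild-type points overlaps that of each mutant genotype.

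Across genotypes, 0 of 3 member regions tested for H3K27me3 were called, as were 0% of all 2483 regions. At an unadjusted p under 0.05 (exact permutation) there were 581 regions in all and 0 of the members. By gene window, 0 of 6 members were called and 0 passed an unadjusted p under 0.05, against 7.57% of 3516 windows called. Dlk1 and Mkrn3 had peaks in only 3 libraries each, so they could hardly be called after adjustment. Within 2 kb of a start, 5 of the 29 members with a start in the promoter set (17.2%: Igf2, Dlk1, Rasgrf1, Grb10 and Mkrn3) had an H3K27me3 peak in any list, against 8.9% of all genes. In at least 3 libraries, 3 (10.3%) had one, against 3.96%. Over the gene with 10 kb on each side, 8 of 38 members (21.1%) had one, against 16.8% of 49943 genes. In at least 3 libraries these were 6 (15.8%) against 7.04%, and gene length was not matched. Counted by assigned name, members with an H3K27me3 peak numbered 4, 3 and 2 in wild-type replicates 1 to 3, 1 in each mfn2-/- replicate (Grb10 each time), 3, 0 and 4 in vhl-/-, and 0, 0 and 1 in HIF1dPA. In HIF1dPA lists, 102 to 121 genes of any kind had a peak within 2 kb of a start, against 623 to 976 in the other genotypes, and the part of list length in the members' counts was not tested.

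Among 58 other imprinted genes, 22 had H3K27me3 peaks, 13 of them in at least 3 libraries (Ascl2, Calcr, Dio3, Htr2a, Kcnk9, Klf14, Ntm, Phlda2, Rtl1, Sfmbt2, Smoc1, Zdbf2 and Zfp64). Klf14, a Krüppel-like factor gene, had peaks in 11 of 12 libraries with a highest score of 224.14, and Zdbf2 in 10 with 201.12. H3K9me3 peaks were assigned to 13 of the 58, and to 2 (Cobl and Smoc1) in at least 3 libraries. Within the Dlk1-Meg3 cluster, Dio3, a thyroid hormone deiodinase gene, had H3K27me3 in 9 libraries, 1 of them HIF1dPA.

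By assigned name, 22 members had no listed peak of either mark: H19, Igf2, Kcnq1ot1, Cdkn1c, Peg3, Snrpn, Magel2, Peg10, Sgce, Plagl1, Igf2r, Gnas, Nespas, Impact, Nap1l5, Inpp5f, Zrsr1, Commd1, Peg13, Mcts2, H13 and Nnat. They include the growth restraining kinase inhibitor gene Cdkn1c, the zinc finger gene Peg3 and the G protein gene Gnas. At Gnas, Nespas, Mcts2 and H13 no list of either mark skipped a number, so for these 4 the absence does not rest on peaks that were not analysed. For Peg3, Impact, Peg10 and Nap1l5, 4 to 6 of the 12 H3K9me3 lists skipped numbers nearby.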

How the data were processed

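The authors deposited 1 peak list per ChIP library, so replicates were not pooled. Per the submitters' processing notes, which give no order, BWA 0.7.5, MACS and deepTools 3.5.0 were used with build mm10. The use of the input and the handling of duplicate reads are not given in the sources used here. The deposited score of a peak equals -log10 of its p-value multiplied by 10. Groups come from the labels. The labels do not say that replicates were separate animals. The paper's legends give 3 mice per group for the wild-type and mfn2-/- sets, and 3 biological replicates for every ChIP-seq set. The p-values set differences between genotypes against the spread between libraries.

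The members and lists were chosen with earlier results of these data known. Every member is accounted for, regions with peaks in at least 3 of 12 libraries are given by library, and the others by gene and library. The planned rule for sequences (control-region genes with H3K9me3 in most libraries) selected none. Overlapping peaks (at least 1 bp) of the 12 lists of a mark were merged into regions. Covered base pairs were compared across genotypes by an exact permutation test (between-group sum of squares, 369600 arrangements, smallest p 6.49e-05), adjusted by Benjamini-Hochberg over all regions with a peak in at least 3 libraries. RefSeq genes with 10 kb on each side (GRCm38.p6, 49943 genes, all 38 members matched, Nespas as Gnasas1) and 2 kb around starts were added after the data were seen. Of 9414 peaks in the promoter class within 1 kb, 97.6% lay within 10 kb of the RefSeq gene of the assigned symbol. Replicate numbers did not pair the libraries. Alternatives were a score of at least 100, equal numbers of strongest peaks, peaks within 1000 bp joined, the score percentile, regions in at least 2 libraries, autosomes, the replicate block and each library left out. The test was tested on simulated data. Scripts ran under Python 3.11.15 with pandas 2.3.3 and numpy 2.4.6, and figures were drawn with matplotlib 3.10.9.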

Additional observations from a re-analysis of the deposited data

How the results depend on the processing

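Under all alternatives run, 0 member regions and 0 member gene windows were called across genotypes, and the adjusted p at Igf2 ranged from 0.112 to 1. Unadjusted, a few members fell under 0.05 at some settings, such as Igf2 on the score percentile (exact permutation, p = 0.0283, adjusted p = 0.113). Over all H3K27me3 windows, the 266 calls became 0 on the score percentile and 2 with equal list length. Counts of members with a peak rested on weak peaks. With a score of at least 100, the mean number of members per library became 0 for H3K9me3 in mfn2-/-, and for H3K27me3 0.333 in wild-type, 0 in mfn2-/- and 0 in vhl-/-. With the same number of strongest peaks per library it became 0 for H3K27me3 in wild-type, mfn2-/- and vhl-/- (3, 1 and 2.33 with all peaks). In HIF1dPA it stayed at 0.333. For H3K9me3 at this setting it went from 1.67 to 0 in wild-type and from 2.67 to 1.67 in mfn2-/-. It stayed at 0.667 in vhl-/- and 0.333 in HIF1dPA. Counting any peak within 10 kb of a member gave 1 for H3K9me3 in HIF1dPA, and for H3K27me3 2.33 in mfn2-/- and 1.33 in HIF1dPA. Leaving out each library, member regions that separated wild-type from mfn2-/- ranged from 0 to 1 for H3K9me3 and from 0 to 2 for H3K27me3, from vhl-/- from 0 to 1 and from HIF1dPA from 0 to 2 for H3K27me3.

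Same-numbered libraries did not deviate together (mean correlation 0.00 for H3K9me3 and -0.01 for H3K27me3). With the replicate block, whose smallest p is 0.00174, 0 member regions were called for either mark, and over all features the calls fell from 44 to 0 for H3K9me3 regions and from 266 to 0 for H3K27me3 windows. Depth is unknown, so a weak peak missing from a list cannot be told from one under the caller's limit.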
